A study of Homo sapiens with 19 samples.

Results

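The comparison set CD44hi cells sorted after low oxygen directly against CD44hi cells sorted after epirubicin, with 4 arrays on each side, chosen by their sample titles from the 19 arrays of the series. SKBR3 cells come from a breast carcinoma and carry extra copies of ERBB2. They had been grown either at 1% oxygen over 7 days or with 60 nM epirubicin over 3 days, and both cultures were then sorted by flow cytometry on surface CD44. Drug, oxygen level and length of treatment therefore differ together between the groups, and their parts cannot be told apart. The series also holds 4 CD44lo arrays for each treatment and 3 arrays of untreated cells, for which the labels name no sort. The untreated levels are given below only as a description. The labels speak of biological replicates but not of separate cultures. The p-values thus reflect no more than how these arrays varied, and part of that variation may be technical.

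Epirubicin is an anthracycline that holds topoisomerase II on cut DNA and so leaves strand breaks, which are signalled through the kinases ATM and CHEK2. In well oxygenated cells the EGLN prolyl hydroxylases mark the HIF alpha subunits for degradation. When oxygen is short the subunits persist and bind short ACGTG or GCGTG sequences near genes of glucose uptake, glycolysis, vessel growth and pH control. CD44, the hyaluronan receptor on which the cells were sorted, is widely used to mark breast cancer cells with stem-like or mesenchymal traits.

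Signals are linear microarray intensities on the scale the authors deposited, and differences were taken as log2(signal + 4.2), hypoxia minus epirubicin, so that a positive value means a higher signal after hypoxia. Log2 differences carry their standard error and mean signals their SD, with n = 4 arrays unless stated. A gene is called at an adjusted p under 0.05 in limma with Benjamini-Hochberg adjustment over the 12064 genes tested. Adjusted p-values below come from that fit unless another setting is named beside them. Of these genes, 867 (7.19%) were called higher after hypoxia and 1058 (8.77%) lower, together 1925. The groups of 4 arrays did not overlap for 2268 genes (18.8%), of which 1606 were called. The median log2 difference over all tested genes was -0.02. A difference of at least 2-fold was seen in 1140 called genes, and of at least 8-fold in 48, of which 27 were higher and 21 lower after hypoxia.

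The arrays carried the markers of the line. Mean signals in the epirubicin and hypoxia groups were 3574 and 2992 for ERBB2, 2917 and 3209 for KRT8, and 2746 and 2667 for EPCAM. Of 13 measured immune markers 10 were below the filter on signal and 0 of the 3 tested were called. Their summed signal was 177.3 to 605.1 after epirubicin and 206.2 to 686.0 after hypoxia, most of it from CSF1R, a receptor of macrophages that read 116.9 to 469.3 and 134.5 to 616.3. By contrast PTPRC, CD3E, CD2, MS4A1, CD14, NKG7, GNLY and KLRD1 stayed under the table median of 16.9 on all 8 arrays. Of 16 stromal and endothelial markers 13 were below the filter, among them DCN, LUM, COL3A1 and VWF, which stayed under 16.9 on all 8 arrays. The summed signal was 519.0 to 606.9 after epirubicin and 293.3 to 352.9 after hypoxia, and the 2 called members, the smooth muscle myosin MYH11 (log2 -1.37 ± 0.32) and the endothelial cadherin CDH5 (-0.95 ± 0.24), were lower after hypoxia. CDH5 was not called with either array quality measure below as a covariate (adjusted p = 0.115 and 0.255), and the part of these cell types in the results was not tested. On bulk arrays fewer cells of a type and less RNA per cell cannot be told apart. Arrays correlated across genes at 0.941 to 0.969 within the epirubicin group, 0.931 to 0.960 within the hypoxia group and 0.862 to 0.939 between them. On a scale where the other arrays of the groups average -1 (epirubicin) and 1 (hypoxia), epirubicin array 4 lay at -0.34 and hypoxia array 2 at 0.28, the closest to the opposite group. The ratio of 3' to 5' signal of ACTB, a measure of RNA quality, was 1.24 to 1.85 after epirubicin and 1.20 to 1.29 after hypoxia, and the bacterial hybridisation controls averaged 4396 ± 1760 and 2724 ± 354. Exact two-sided permutation p-values for these measures were 0.114 and 0.171, where 0.0286 is the smallest possible. With the ACTB ratio as a covariate 1142 genes were called, and with the hybridisation controls 1129; these are the quality covariates below.

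The promoter windows of 4 genes called higher after hypoxia are shown because each holds the HIF core: ANKRD37 of the hypoxia response list, ENO2 of the glycolysis list, CXCR4 of the stem cell associated list, and AK4, which is in no list. The motif search used ACGTG and GCGTG on both strands, in RefSeq promoters (GRCh38.p14, 250 bases before to 50 after each start). The windows show the 65 bases around the match nearest to the start on its upstream side, with matches in capitals. AK4 lies at chr1:65147430-65147494 on the plus strand, ENO2 at chr12:6914432-6914496 on the plus strand, ANKRD37 at chr4:185396668-185396732 on the plus strand and CXCR4 at chr2:136118154-136118218 on the minus strand.
AK4: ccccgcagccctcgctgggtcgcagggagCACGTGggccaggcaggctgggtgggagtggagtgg
ENO2: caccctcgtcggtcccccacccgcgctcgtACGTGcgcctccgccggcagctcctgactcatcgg
ANKRD37: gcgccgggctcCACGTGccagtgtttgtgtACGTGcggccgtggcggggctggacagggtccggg
CXCR4: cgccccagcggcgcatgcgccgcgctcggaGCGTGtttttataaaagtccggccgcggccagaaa
The motif was found in 12 of the 15 promoters available for members of the hypoxia response list called higher (80.0%), a count that leaves out CA12, which was called lower. It was common everywhere: 62.9% of promoters of tested genes, 62.5% of those of genes called higher and 61.7% of those of genes called lower held it, as did 48.4% of all promoters in the table. Among the 15 largest rises, 7 of the 13 promoters available (53.8%) held it. In the 250 bases before the start no match was found for EGLN3, PDK1, P4HA2 and SLC2A1 of the hypoxia response list.

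The hypoxia response list was higher after hypoxia in 19 of its 23 tested members and lower in 1, with a median log2 difference of 1.60, where 7.19% and 8.77% of all tested genes were called higher and lower around a median of -0.02. EGLN3, a HIF prolyl hydroxylase that is itself a HIF target, read 72.2, 136.8, 97.4 and 66.0 on epirubicin arrays 1 to 4 and 1621.1, 954.2, 1897.6 and 1326.6 on hypoxia arrays 1 to 4. Every hypoxia array lay far above every epirubicin array, a 15.1-fold difference (log2 3.91 ± 0.25, adjusted p = 3.72e-06). SLC2A3, the high-affinity glucose transporter GLUT3, read 22.7, 50.3, 41.1 and 73.4 after epirubicin against 598.1, 211.4, 1033.1 and 1691.7 after hypoxia (14.5-fold, log2 3.86 ± 0.50, adjusted p = 3.31e-04). The groups did not overlap, and hypoxia array 2 was the lowest of its group; without arrays 2 of both groups the difference was 22.4-fold. ANKRD37, an ankyrin repeat protein known as a HIF target, was at 27.5 to 55.2 after epirubicin and 136.3 to 566.8 after hypoxia (7.77-fold, adjusted p = 2.06e-04). VEGFA, the vessel growth factor, and SLC2A1, the glucose transporter GLUT1, are named here for their place in the pathway after their values had been seen. VEGFA averaged 360 ± 108 and 1081 ± 453 (log2 1.53 ± 0.28, adjusted p = 0.00279), and SLC2A1 averaged 1044 ± 36.3 and 3024 ± 585 (log2 1.51 ± 0.16, adjusted p = 1.28e-04).

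CA12 went the other way from the rest of the list. This membrane carbonic anhydrase, which helps to set the pH around the cell, read 1242.0, 555.6, 898.6 and 653.1 after epirubicin but 96.9, 87.1, 84.4 and 54.0 after hypoxia. The groups were far apart (9.66-fold lower after hypoxia, log2 -3.27 ± 0.25, adjusted p = 1.36e-05), and untreated cells had 642 ± 114 (n = 3). The mean of all its probe sets gave a smaller difference, 4.90-fold. Of the other members, STC2 (0.42 ± 0.49), ANGPTL4 (-0.06 ± 1.01) and DDIT4 (-0.34 ± 0.27) were tested and not called. LOX, which crosslinks collagen, was below the filter, and CA9 was not analysed here because it had no probe set of its own. The count of 19 higher and 1 lower was the same in every fit that left out 1 array and with either quality covariate.

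Glycolysis and lactate export had 11 of 20 tested members higher after hypoxia and 1 lower, with a median of 0.70. ENO2, the neuronal form of enolase, read 5.9, 7.1, 1.9 and 8.1 after epirubicin and 204.1, 22.3, 202.9 and 385.6 after hypoxia. Epirubicin arrays were all near background and hypoxia array 2 was far below the other hypoxia arrays. The groups did not overlap, as the choice of the largest rises required (15.1-fold, log2 3.92 ± 0.64, adjusted p = 0.00135). GBE1, the branching enzyme of glycogen synthesis, was at 40.5 to 88.6 and 251.4 to 486.3 (5.71-fold, adjusted p = 8.83e-05). HK2, the hexokinase that commits glucose to the cell, read 820.9, 774.2, 569.0 and 566.1 after epirubicin against 3095.0, 1807.7, 3658.5 and 3482.9 after hypoxia. That is 4.30-fold with no overlap (log2 2.10 ± 0.22, adjusted p = 1.11e-04), and 1.63-fold over the mean of its probe sets. ALDOC, an aldolase, was 2.53-fold higher (adjusted p = 4.63e-04). The phosphofructokinase subunit PFKM was the member called lower (-0.76, adjusted p = 0.0199), a call that ended with either quality covariate (0.144 and 0.112) and without epirubicin array 1 or 3 or hypoxia array 4 (up to 0.0689). GAPDH (0.13), ENO1 (0.30) and ALDOA (0.04) were tested without a call. AK4, a mitochondrial adenylate kinase, was outside the lists and among the largest differences of all, at 13.4, 8.6, 3.2 and 18.9 against 338.9, 73.4, 364.8 and 508.1 (log2 4.25 ± 0.51, adjusted p = 2.06e-04), with no overlap. Over the mean of its probe sets it was 8.53-fold.

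Of 20 tested subunits of oxidative phosphorylation 3 were called lower after hypoxia, 0 were higher, and the median was -0.40, where 8.77% of all tested genes were called lower. These were UQCRC2 (-1.22 ± 0.26) and UQCRC1 (-0.62 ± 0.19), core proteins of complex III, and NDUFV1 (-0.94 ± 0.26), a complex I subunit. The calls of NDUFV1 and UQCRC1 ended in several fits that left out 1 array, at adjusted p up to 0.0764 and 0.117. The list count was 1 without epirubicin array 1 or 3 or hypoxia array 1 or 4 and with either quality covariate, and 5 without epirubicin array 4 or hypoxia array 2.

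**Figure D1:**
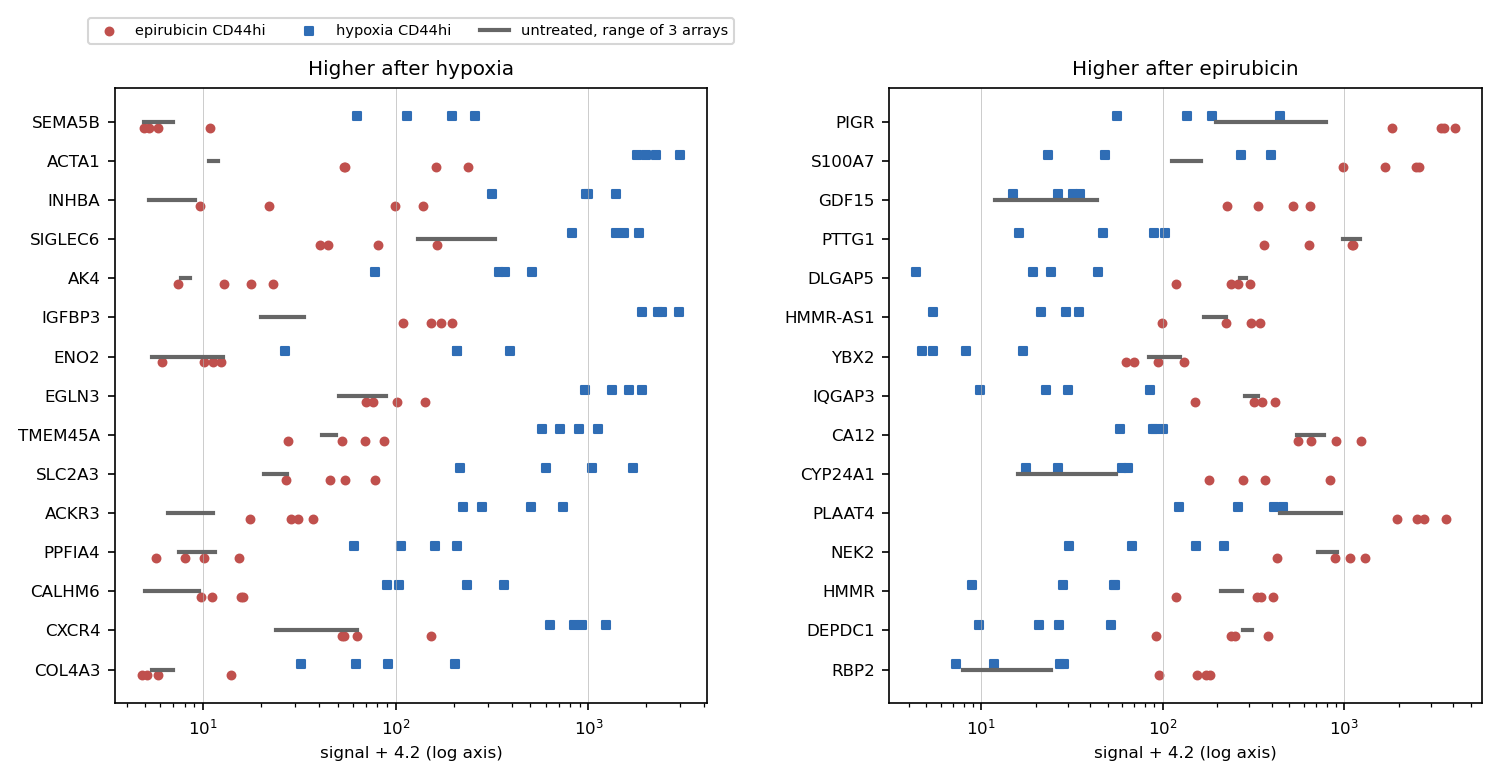
Signal + 4.2 on a log axis for the 15 genes with the largest rise (left) and the 15 with the largest fall (right) from epirubicin to hypoxia among called genes without overlap. Circles are the 4 epirubicin and squares the 4 hypoxia CD44hi arrays, and grey bars span the 3 untreated arrays; ACTA1 runs from 49.8 to 231.7 after epirubicin and from 1791.0 to 3001.1 after hypoxia.

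The contractile genes that serum response factor is known to drive were the other large block on the hypoxia side. Serum response factor binds the CArG box, and 4 of the 11 promoters available for called members (36.4%) held one, against 1.1% of promoters of tested genes, 3.0% of those of genes called higher and 1.3% of all promoters. These 4 are shown for that reason, so that CNN2 and SRF were chosen after their values were seen, with the boxes in capitals. ACTA1 is at chr1:229434157-229434221 (minus strand), ACTG2 at chr2:73892905-73892969 (plus), CNN2 at chr19:1026489-1026553 (plus) and SRF at chr6:43171204-43171268 (plus).
ACTA1: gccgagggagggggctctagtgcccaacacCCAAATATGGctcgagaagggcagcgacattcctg
ACTG2: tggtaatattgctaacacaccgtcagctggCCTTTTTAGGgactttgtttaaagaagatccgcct
CNN2: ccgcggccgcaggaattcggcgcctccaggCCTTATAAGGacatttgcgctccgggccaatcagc
SRF: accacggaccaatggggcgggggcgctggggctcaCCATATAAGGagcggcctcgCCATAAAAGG
The counts of promoters are small, and a match is a stretch of letters, not a bound site. The contractile list was chosen around genes of serum response factor and holds SRF itself, so a raised share was built into the choice. The share among its members that were not called was not counted, and a part of this factor in the differences was not tested.

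Of the contractile and cytoskeletal list, 13 of 21 tested members were higher after hypoxia and 0 lower, with a median of 1.00. ACTA1, skeletal muscle alpha actin, read 49.8, 231.7, 50.1 and 157.7 after epirubicin and 3001.1, 1791.0, 1994.6 and 2242.5 after hypoxia. The difference was 21.6-fold with no overlap (log2 4.43 ± 0.40, adjusted p = 4.09e-05), and untreated cells had 7.13 ± 0.603 (n = 3). MYL9, the regulatory light chain of smooth muscle myosin, read 129.0, 452.1, 140.1 and 739.6 against 2905.2, 2554.7, 2345.4 and 3023.2 (9.49-fold, log2 3.25 ± 0.44, adjusted p = 4.22e-04). Epirubicin arrays 2 and 4 were the higher ones of their group for both genes. ACTG2, an enteric actin, was 5.80-fold higher (adjusted p = 9.64e-04), and 2.95-fold over the mean of its probe sets. TAGLN, the actin-binding protein transgelin, was 4.81-fold higher (adjusted p = 0.00219), and 3.07-fold over the mean of its probe sets. The cytoplasmic actin ACTB (-0.30), the tropomyosins TPM1 (0.42), TPM2 (0.52) and TPM4 (0.04), and ACTN4 (0.44) were not called. The list mean was 10.23 to 10.38 on the hypoxia arrays and 8.68 to 9.45 on the epirubicin arrays on the log2 scale, and 7.96 to 8.10 in untreated cells, so both treated groups lay above the untreated arrays.

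Basal and hemidesmosome genes, which mark the outer mammary layer and its anchorage, were higher after hypoxia in 8 of 9 tested members, with 0 lower and a median of 1.75. CAV1, the main protein of caveolae, read 144.7, 455.7, 210.6 and 412.1 after epirubicin and 2703.7, 2328.1, 1762.9 and 2958.5 after hypoxia, with no overlap (8.57-fold, log2 3.10 ± 0.31, adjusted p = 7.46e-05). KRT5, a basal keratin, read 23.5, 30.9, 3.4 and 4.8 against 93.5, 91.4, 105.8 and 204.1 (7.53-fold, log2 2.91 ± 0.47, adjusted p = 0.00137). Every hypoxia array lay above every epirubicin array, but the levels were low; the difference was 3.88-fold without epirubicin arrays 3 and 4, 4.03-fold with the ACTB ratio as a covariate and 4.42-fold with an offset of 16.9. DST, the plakin that ties keratin to hemidesmosomes, was 6.37-fold higher (adjusted p = 6.68e-05), and 2.72-fold over the mean of its probe sets. LAMB3, a chain of laminin-332, was 4.52-fold higher (adjusted p = 1.96e-04). ITGA6 was not called (0.91), KRT14 and CDH3 were below the filter, and the other 7 members had no probe set of their own.

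Matrix and mesenchymal genes were higher in 8 of 15 tested members, 0 were lower, and the median was 0.99. The list was not moved as a whole: 10 members, among them the transcription factors TWIST1, ZEB1 and SNAI2 and the filament protein VIM, were below the filter, and SNAI1 was at -0.59 without a call. CDH2, the neuronal cadherin, read 0.4, 5.0, 7.5 and 4.9 after epirubicin and 67.5, 16.7, 23.6 and 96.5 after hypoxia. Epirubicin arrays were at background and hypoxia arrays 2 and 3 well below the other hypoxia arrays, without overlap (5.52-fold, log2 2.47 ± 0.51, adjusted p = 0.00536). With an offset of 1 CDH2 was 9.12-fold higher, and with an offset of 16.9 it was 2.84-fold. COL5A1, a fibrillar collagen chain, was at 56.8 to 86.0 and 239.1 to 483.9 (5.14-fold, adjusted p = 6.24e-05). THBS1, the matrix protein thrombospondin, averaged 584 ± 392 and 2033 ± 293 (4.07-fold, adjusted p = 0.00225). MMP2, a gelatinase, was 4.65-fold higher (adjusted p = 0.00146), but over the mean of its probe sets it was 1.56-fold and not called (adjusted p = 0.0999).

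Secreted growth factors and their binding proteins followed. In the TGF-beta, activin and IGF-binding list 9 of 18 tested members were higher after hypoxia and 1 lower, with a median of 0.80. INHBA, the subunit of activin A, read 5.4, 134.2, 17.7 and 94.5 after epirubicin and 986.9, 312.1, 963.9 and 1394.0 after hypoxia. The epirubicin arrays were widely spread, and the groups did not overlap, as the choice of the largest rises required (19.6-fold, log2 4.29 ± 0.70, adjusted p = 0.00140). Without arrays 2 of both groups the difference was 40.1-fold. IGFBP3, which binds insulin-like growth factors, read 105.1, 191.2, 167.0 and 147.6 against 2960.0, 1901.5, 2295.7 and 2391.1. Its 4 arrays were tight in each group, and it had the smallest standard error of the large differences described here (15.4-fold, log2 3.94 ± 0.20, adjusted p = 3.31e-07). TGFB2 averaged 435 ± 219 and 1381 ± 262 (3.49-fold, adjusted p = 0.00222). IGFBP2 was the member called lower, at 80.9, 49.9, 34.2 and 6.0 against 1.6, 1.9, 5.3 and 5.7 (4.82-fold lower, adjusted p = 0.0144), and the call ended without epirubicin array 1 (adjusted p = 0.0568). The size for IGFBP2 ran from 2.57-fold with an offset of 16.9 to 10.6-fold with the ACTB ratio as a covariate.

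The CXCL12 receptors CXCR4 and ACKR3 were both higher after hypoxia. CXCR4, which also belongs to the stem cell associated list, read 48.1, 148.2, 58.9 and 49.5 after epirubicin and 918.0, 628.4, 836.1 and 1233.3 after hypoxia, clear of each other (12.2-fold, log2 3.61 ± 0.31, adjusted p = 3.05e-05). ACKR3, the scavenging receptor, read 26.7, 33.0, 13.3 and 24.4 against 499.0, 219.5, 276.0 and 735.4 (14.2-fold, log2 3.83 ± 0.35, adjusted p = 4.52e-05), and 2.93-fold over the mean of its probe sets. The stem cell associated list had 6 of 16 tested members higher and 1 lower, with a median of 0.53. For all tested genes the shares called were 7.19% higher and 8.77% lower. The Notch ligand JAG1 was 7.47-fold higher (adjusted p = 5.46e-04) and the Notch target HEY1 4.17-fold higher (adjusted p = 2.51e-05), while NOTCH1 (-0.06) and HES1 (-0.03) were not called. SOX9, a transcription factor of progenitor cells, was 2.72-fold higher (adjusted p = 6.59e-04). The member called lower was the aldehyde dehydrogenase ALDH1A3 (log2 -0.73 ± 0.16, adjusted p = 0.00826), and the count of members called lower was 0 with the ACTB ratio as a covariate. PROM1 (0.45), MYC (-0.33) and KLF4 (0.66) were not called, and ALDH1A1, NANOG and LGR5 were below the filter.

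Among the 15 largest rises were also genes of no list. SEMA5B, a transmembrane semaphorin, read 1.6, 0.7, 1.0 and 6.6 after epirubicin and 252.4, 109.8, 59.0 and 190.9 after hypoxia. The epirubicin signals were at or near the offset, so the size depends on it: 21.8-fold as analysed (log2 4.45 ± 0.43, adjusted p = 6.24e-05), 46.8-fold with an offset of 1 and 7.92-fold with an offset of 16.9. SIGLEC6, a sialic acid-binding lectin, read 40.1, 76.6, 36.4 and 159.8 against 817.5, 1836.0, 1391.2 and 1526.4 (19.2-fold, log2 4.26 ± 0.38, adjusted p = 3.47e-05). Untreated cells had 213 ± 100 (n = 3), between the treated groups. SIGLEC6 had only probe sets of the _x_at kind, whose probes can share targets with other genes. Whether its signal comes from SIGLEC6 alone was not tested. TMEM45A, a membrane protein, was 14.7-fold higher (adjusted p = 2.21e-05). PPFIA4 (13.2-fold), a liprin, CALHM6 (13.1-fold), of the calcium homeostasis modulator family, and COL4A3 (11.7-fold), a basement membrane collagen chain, complete the 15; each had epirubicin signals of 11.9 or less. Over the mean of their probe sets CALHM6 was 4.55-fold and COL4A3 3.95-fold higher, and with an offset of 16.9 PPFIA4 was 6.08-fold, CALHM6 7.09-fold, COL4A3 4.70-fold, AK4 10.4-fold and ENO2 7.39-fold higher. With an offset of 1 PPFIA4 was 20.8-fold and COL4A3 24.3-fold higher.

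**Figure D2:**
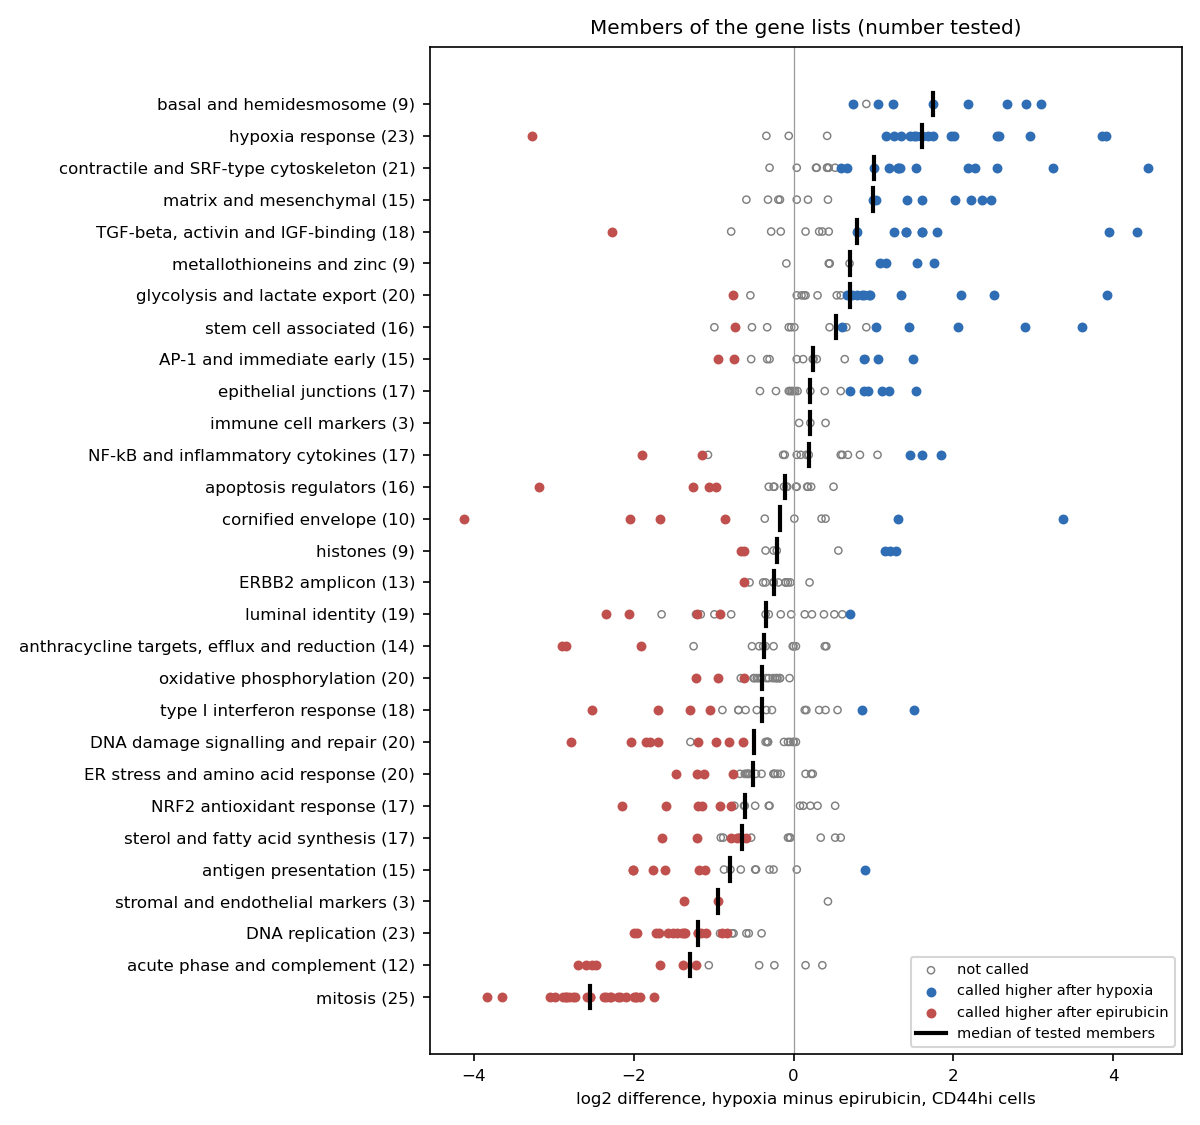
Log2 difference (hypoxia minus epirubicin, CD44hi cells) of every tested member of 29 gene lists, ordered by the list median (black bar). Filled points were called, open ones were not; all 25 tested mitosis genes lie at -1.74 or lower, and the basal and hypoxia lists have medians of 1.75 and 1.60.

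Genes of cell division were higher after epirubicin without exception among those listed. All 25 mitosis genes were called lower after hypoxia, with log2 differences from -3.83 to -1.74 and a median of -2.54, and the count was 25 in each fit that left out 1 array and with either quality covariate. PTTG1, securin, read 1107.7, 634.2, 1119.9 and 358.2 after epirubicin and 11.9, 85.3, 43.0 and 98.9 after hypoxia (14.3-fold lower, log2 -3.83 ± 0.51, adjusted p = 3.94e-04). The only probe set of PTTG1 is of the _x_at kind, whose probes can share targets with other genes, and this was not tested. DLGAP5, a spindle protein, read 233.3, 255.1, 300.6 and 113.8 against 0.2 to 39.8 (12.5-fold lower, log2 -3.65 ± 0.56, adjusted p = 9.20e-04). The groups were separate for both, as the choice of the largest falls required, and epirubicin array 4 was the lowest of its group. ASPM, a spindle pole protein, was 8.26-fold lower (adjusted p = 1.82e-04) and KIF20A, a kinesin of cytokinesis, 7.88-fold lower (adjusted p = 0.00114). The mitotic kinase NEK2 (9.38-fold), the hyaluronan-mediated motility receptor HMMR (9.31-fold), its antisense transcript HMMR-AS1 (11.9-fold), the scaffold IQGAP3 (10.5-fold) and DEPDC1 (9.26-fold), a nuclear protein of dividing cells, were outside the list and among the 15 largest falls. Offsets change these sizes where hypoxia signals were low: DLGAP5 was 18.8-fold lower with an offset of 1, and with an offset of 16.9 DLGAP5 was 7.05-fold, HMMR-AS1 7.07-fold and DEPDC1 6.12-fold lower. IQGAP3 was 6.67-fold lower over the mean of its probe sets. HMMR and HMMR-AS1 overlap in the genome, and whether their probe sets read separate transcripts was not tested.

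For mitosis genes the hypoxia arrays lay further from the untreated level than the epirubicin arrays did. No sort is named for the untreated arrays, and the side on which the gap arose was not tested. The mean log2 level over the 25 mitosis genes was 8.74, 8.75, 9.02 and 7.70 on epirubicin arrays 1 to 4, 4.94, 6.87, 5.91 and 6.35 on hypoxia arrays 1 to 4, and 8.80 to 8.86 in untreated cells. Epirubicin arrays 1 to 3 were thus within 0.2 of the untreated level, array 4 was about 1 below it, and each hypoxia array was lower still. For DNA replication 16 of 23 tested members were called lower after hypoxia, 0 were higher and the median was -1.20. The list mean of hypoxia array 2 (7.72) lay above that of epirubicin array 4 (7.70), so the groups overlapped. RFC3, a clamp loader subunit, read 978.7, 1267.8, 1335.2 and 745.1 against 121.6, 430.9, 354.7 and 253.7 (3.97-fold lower, log2 -1.99 ± 0.32, adjusted p = 0.00135). The groups did not overlap. TK1, thymidine kinase, was 3.88-fold lower (adjusted p = 1.92e-04), GINS1, of the replicative helicase, 3.29-fold (adjusted p = 0.00159) and UHRF1, which maintains DNA methylation, 3.20-fold (adjusted p = 0.00183). The count of 16 was 10 without epirubicin array 2 and 9 without epirubicin array 3. PCNA (-0.56) and MCM3 to MCM6 were not called.

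Of the DNA damage signalling and repair list 9 of 20 tested members were lower after hypoxia, 0 were higher, and the median was -0.49. CHEK2, a checkpoint kinase, read 168.8, 125.9, 118.9 and 61.6 after epirubicin and 12.5, 28.9, 14.6 and 3.6 after hypoxia, with no overlap (6.89-fold lower, log2 -2.78 ± 0.42, adjusted p = 8.10e-04). FANCI, of the crosslink repair pathway, was 4.09-fold lower (adjusted p = 0.00362) and BRCA1, which acts in homologous recombination, 3.48-fold lower (adjusted p = 0.00634). With an offset of 16.9 CHEK2 was 4.25-fold and BRCA1 2.15-fold lower. EXO1, an exonuclease, was 3.57-fold lower (adjusted p = 0.0136), with overlapping groups, and its call ended without epirubicin array 3 (adjusted p = 0.0519) or with the ACTB ratio as a covariate (0.0630). The sensors ATM (-0.32) and ATR (-0.12) were not called, nor was CHEK1 (-1.29 ± 0.41, adjusted p = 0.0509). Without epirubicin array 3 the count was 4. The list means were 7.43 to 7.91 after epirubicin, 6.68 to 7.27 after hypoxia and 7.89 to 8.03 in untreated cells.

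CDKN1A and GDF15 differed in opposite directions. CDKN1A, the p21 inhibitor of cyclin-dependent kinases, read 55.3, 293.2, 92.1 and 166.9 after epirubicin and 904.3, 597.3, 621.0 and 1007.5 after hypoxia. All hypoxia arrays were above all epirubicin arrays (5.87-fold, log2 2.55 ± 0.39, adjusted p = 8.98e-04), and untreated cells had 54.2 ± 3.87 (n = 3). GDF15, a secreted stress factor, was the reverse, at 520.7, 222.5, 330.1 and 645.8 after epirubicin and 10.7, 27.8, 22.4 and 30.8 after hypoxia (15.5-fold lower, log2 -3.96 ± 0.34, adjusted p = 3.05e-05). Untreated cells, for which no sort is named, had 23.3 ± 15.8 (n = 3), the level of the hypoxia arrays. The side on which the gap arose was not tested. With the ACTB ratio as a covariate GDF15 was 10.1-fold lower after hypoxia. GADD45A, a stress sensor, was 2.15-fold higher after hypoxia (adjusted p = 0.00682).

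Apoptosis regulators and the genes that handle anthracyclines differed in a few members each. Over all tested genes 7.19% were called higher and 8.77% lower. Of 16 apoptosis regulators 0 were higher and 4 lower after hypoxia, with a median of -0.11. TNFSF10, the death ligand TRAIL, read 134.7, 34.4, 106.7 and 36.9 after epirubicin and 3.6, 6.0, 1.1 and 4.5 after hypoxia. The hypoxia arrays were all near the offset (9.03-fold lower, log2 -3.18 ± 0.45, adjusted p = 5.26e-04; 15.2-fold with an offset of 1 and 4.11-fold with 16.9). The pro-apoptotic BID (2.39-fold) and PMAIP1, also called NOXA (2.08-fold), were lower too, at adjusted p = 0.00415 and 0.00473, although PMAIP1 was not called with the ACTB ratio as a covariate (0.0552). CFLAR, a caspase-8 inhibitor, was called lower (-0.97 ± 0.27), but not over the mean of its probe sets (-0.34, adjusted p = 0.370) and not without any of 5 arrays taken singly (adjusted p up to 0.0853). Of 14 genes for anthracycline targets, efflux and reduction 3 were lower and 0 higher, with a median of -0.36. TOP2A, the drug's target in dividing cells and also a member of the mitosis list, read 2998.7, 2326.0, 4098.3 and 1326.5 against 132.6, 769.2, 294.9 and 454.4 (7.16-fold lower, log2 -2.84 ± 0.44, adjusted p = 0.00106). TOP2B, the isoform of resting cells, was not called (0.41 ± 0.14, adjusted p = 0.0716). AKR1B10, a carbonyl reductase, was 7.43-fold lower after hypoxia (adjusted p = 2.64e-04), and ABCC3, an efflux pump, 3.77-fold lower (adjusted p = 0.00509) but 1.94-fold and not called over the mean of its probe sets (adjusted p = 0.0867). The drug pump ABCB1 was below the filter.

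In the acute phase and complement list 7 of 12 tested members were lower after hypoxia, 0 were higher, and the median was -1.30. LCN2, an iron-binding defence protein, read 2028.2, 1955.6, 2357.4 and 3271.0 after epirubicin against 208.8, 140.6, 588.1 and 1232.7 after hypoxia (6.08-fold lower, log2 -2.60 ± 0.50, adjusted p = 0.00377). The groups were separate, with hypoxia array 4 nearest to the epirubicin arrays, and the call was lost with the ACTB ratio as a covariate (adjusted p = 0.0611). CFB, a complement factor, read 492.6, 197.1, 356.9 and 136.0 against 23.5, 23.4, 51.3 and 62.6 (6.50-fold lower, adjusted p = 7.09e-04), and 2.78-fold over the mean of its probe sets. The metalloreductase STEAP4 and the plasma protein ORM1 were 5.73-fold and 5.55-fold lower (adjusted p = 0.00277 and 0.00186), and ORM1 was 3.05-fold lower with an offset of 16.9. The list mean was 7.75 to 7.86 after epirubicin, 6.15 to 7.05 after hypoxia and 5.33 to 5.97 in untreated cells. The count of 7 was 3 with the ACTB ratio as a covariate and 4 without epirubicin arrays 3 and 4.

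PIGR, the receptor that carries IgA across epithelia, had the largest fall of all called genes without overlap. It read 4082.9, 1829.4, 3410.7 and 3548.4 after epirubicin and 52.2, 438.1, 131.9 and 182.0 after hypoxia, with arrays 2 of both groups nearest to each other. The difference was 19.5-fold (log2 -4.28 ± 0.47, adjusted p = 1.28e-04), and 32.6-fold without both arrays 2. S100A7, psoriasin, read 983.5, 2494.7, 1686.3 and 2576.3 against 19.1, 44.2, 388.9 and 265.0 (17.3-fold lower, log2 -4.12 ± 0.70, adjusted p = 0.00179). The alarmins S100A9 (4.10-fold, adjusted p = 0.00247) and S100A8 (3.19-fold, adjusted p = 0.00252) were lower as well. All 3 belong to the cornified envelope list, which was split, with 2 of 10 tested members higher, 4 lower and a median of -0.18. Across all tested genes 7.19% were called higher and 8.77% lower. SPRR3 of this list, a small proline-rich envelope protein, was 10.3-fold higher after hypoxia (adjusted p = 0.00118). PLAAT4, a retinoid-induced acyltransferase, was at 1958.6 to 3639.7 after epirubicin and 118.7 to 459.3 after hypoxia (9.50-fold lower, adjusted p = 1.05e-04). CYP24A1, which breaks down vitamin D, was 9.64-fold lower (adjusted p = 6.40e-04), RBP2, a retinol carrier, 9.14-fold lower (adjusted p = 3.30e-04), and YBX2, a germ cell RNA-binding protein, 11.1-fold lower (adjusted p = 2.06e-04) with hypoxia signals of 0.5 to 12.8. YBX2 was 21.1-fold lower with an offset of 1 and 4.70-fold with 16.9, where RBP2 was 5.34-fold lower and SPRR3 6.54-fold higher.

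Antigen presentation genes were lower after hypoxia in 6 of 15 tested members and higher in 1, with a median of -0.79. Calls over all tested genes were 8.77% lower and 7.19% higher. The members called lower were the immunoproteasome subunits PSMB8, PSMB9 and PSMB10, the peptide transporter TAP2 and the class II genes CD74 and HLA-DRA. The member called higher was the peptidase ERAP1. PSMB9, an immunoproteasome subunit, read 856.0, 724.1, 1049.8 and 1467.8 after epirubicin and 240.3, 139.9, 250.3 and 410.2 after hypoxia (4.02-fold lower, log2 -2.01 ± 0.29, adjusted p = 6.18e-04). PSMB8, its partner, was at 338.5 to 455.6 and 73.3 to 143.9, also 4.02-fold apart (adjusted p = 1.16e-04). HLA-DRA (3.39-fold, adjusted p = 0.00620) and the class II chaperone CD74 (3.06-fold, adjusted p = 0.0214) were lower at low signals, and the call of CD74 ended without epirubicin array 3 (adjusted p = 0.0580) and with either quality covariate, and that of HLA-DRA with the ACTB ratio (0.0733). HLA-DRA was 5.24-fold lower with an offset of 1 and 1.91-fold with 16.9, and ERAP1 was not called over the mean of its probe sets (adjusted p = 0.353). HLA-B (-0.25), HLA-C (0.04), HLA-E (-0.30) and B2M (-0.66), which form class I molecules, were not called.

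The type I interferon list was mixed, with 2 of 18 tested members higher after hypoxia, 4 lower and a median of -0.40. Among all tested genes 7.19% were called higher and 8.77% lower, and the count higher lay near the first share. IFITM1, an antiviral membrane protein, read 208.4, 183.6, 137.7 and 155.6 against 29.4, 30.7, 40.9 and 11.7 (5.73-fold lower, log2 -2.52 ± 0.30, adjusted p = 2.06e-04). BST2, tetherin, and OAS3, an RNA sensor, were 3.24-fold and 2.44-fold lower (adjusted p = 0.00284 and 0.00281). ISG15, the ubiquitin-like modifier, was higher after hypoxia, at 80.0, 112.7, 75.9 and 87.1 against 403.8, 251.9, 177.0 and 243.3 (2.84-fold, adjusted p = 0.00126). Its call ended when the fit took its spread from all 16 sorted arrays. No array of the other group reached into either range for IFITM1 or ISG15.

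NF-kB and inflammatory cytokines had 3 of 17 tested members higher, 2 lower and a median of 0.19. All tested genes together had 7.19% higher and 8.77% lower. TRAF1, a TNF receptor adaptor, was 3.05-fold higher after hypoxia (log2 1.61, adjusted p = 0.00350) and was called in each fit that left out 1 array. Over the mean of its probe sets TRAF1 was not called (log2 1.38, adjusted p = 0.0613). The chemokine CXCL8 read 9.1, 26.6, 21.4 and 19.2 after epirubicin and 97.1, 13.8, 128.1 and 162.7 after hypoxia, so that hypoxia array 2 lay inside the epirubicin range (log2 1.84 ± 0.57, adjusted p = 0.0429; 6.55-fold, adjusted p = 3.59e-04, without both arrays 2). Leaving out any array but hypoxia array 2 ended that call, at adjusted p from 0.0516 to 0.129. CCL2, a monocyte chemokine, read 234.4, 891.3, 381.2 and 115.7 against 802.2, 765.3, 910.2 and 987.6 (log2 1.46 ± 0.43, adjusted p = 0.0364). Its call ended with either quality covariate and without any of 6 arrays taken singly, at adjusted p up to 0.110. CCL20, another chemokine, was lower after hypoxia (-1.90 ± 0.48, adjusted p = 0.0176), a call that ended without epirubicin array 3 (0.0682) or hypoxia array 1 (0.0544), with either quality covariate (0.0529 and 0.0510), and without both arrays 2.

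**Figure D3:**
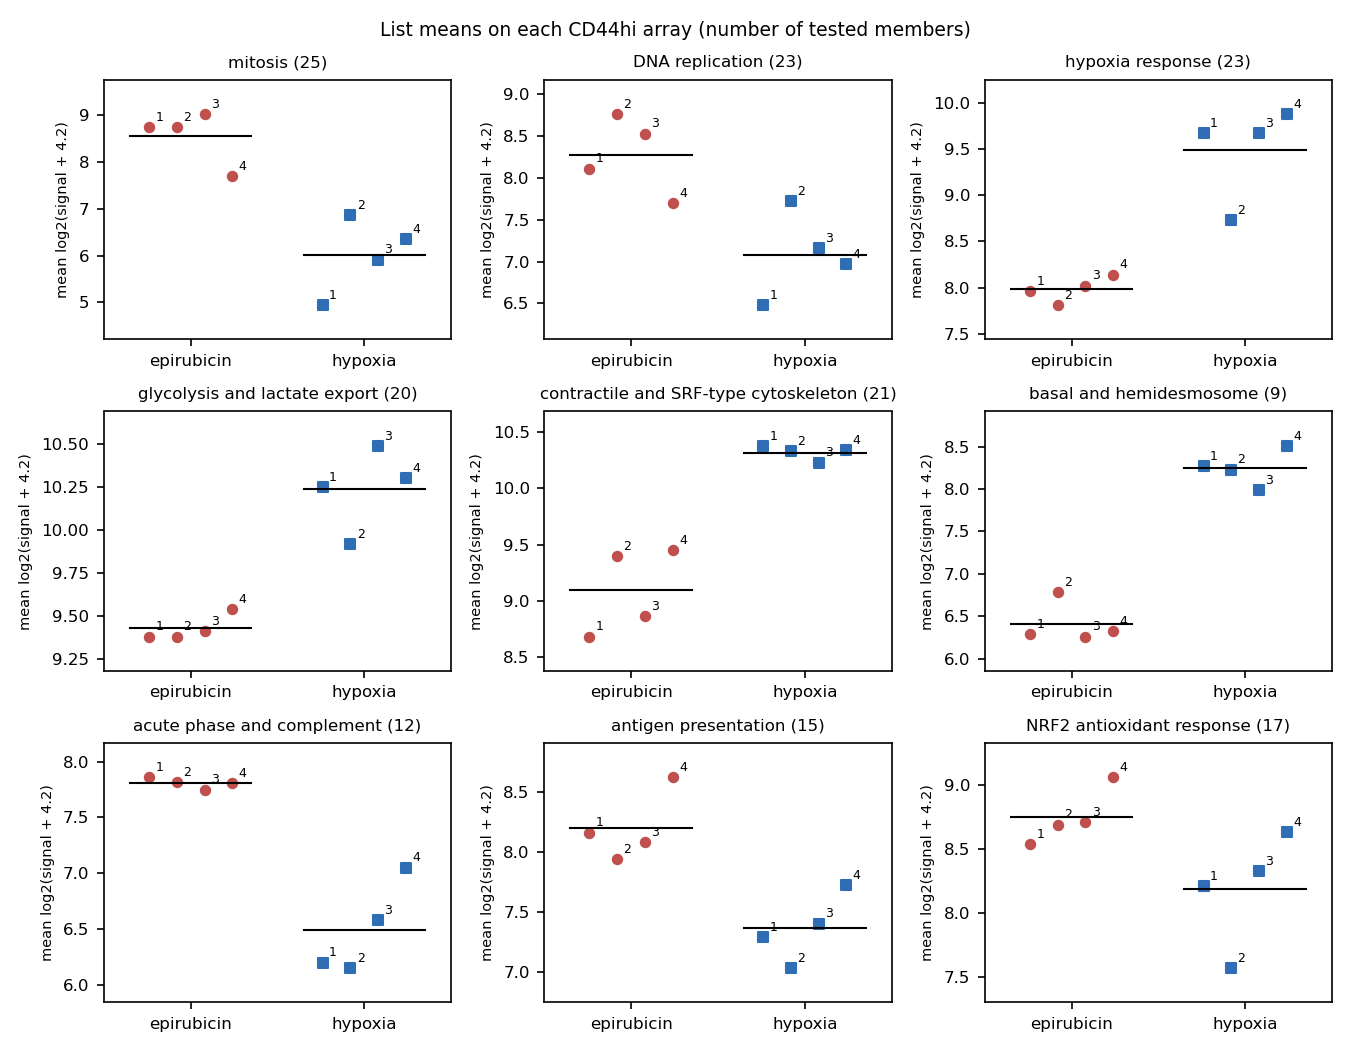
Mean log2(signal + 4.2) over the tested members of 9 lists on each CD44hi array, labelled by replicate number, with the group mean as a line; vertical axes do not start at 0. Mitosis runs from 7.70 to 9.02 after epirubicin and from 4.94 to 6.87 after hypoxia, and the groups overlap in the panels of DNA replication (hypoxia up to 7.72, epirubicin from 7.70) and NRF2 genes (up to 8.63, from 8.54).

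Antioxidant and lipid genes were higher after epirubicin in part. Of 17 tested NRF2 genes 6 were lower after hypoxia, 0 were higher, and the median was -0.61. NQO1, a quinone reductase, read 2020.1, 1458.7, 2476.7 and 3306.2 against 590.1, 386.0, 912.4 and 1356.7 (3.03-fold lower, log2 -1.60 ± 0.33, adjusted p = 0.00610), just without overlap. It was not called with the hybridisation controls (adjusted p = 0.0599) or the ACTB ratio (0.110) as a covariate. TKT, transketolase of the pentose phosphate pathway, was 2.30-fold lower (adjusted p = 0.00174), and GCLM, of glutathione synthesis, 2.21-fold lower (adjusted p = 0.00938; 0.0698 and 0.138 with the same covariates). GPX2, a glutathione peroxidase, was 4.45-fold lower with overlapping groups (adjusted p = 0.0162; 0.0535 without hypoxia array 1; 0.0897 and 0.144 with the same covariates), and 2.36-fold over the mean of its probe sets. The count of 6 was 3 with the hybridisation controls as a covariate, and 2 with the ACTB ratio or without epirubicin arrays 3 and 4. In sterol and fatty acid synthesis 6 of 17 tested members were lower and 0 higher, with a median of -0.65. SREBF1, a master transcription factor of lipid synthesis, read 154.4, 200.0, 126.2 and 165.5 against 40.2, 69.9, 50.1 and 37.7 (3.13-fold lower, log2 -1.65 ± 0.24, adjusted p = 6.57e-04). ACACA, acetyl-CoA carboxylase, was 2.31-fold lower (log2 -1.21, adjusted p = 0.00320) but not called over the mean of its probe sets (log2 -0.63, adjusted p = 0.126). The list count was 3 without hypoxia array 1 or 4.

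The next 2 lists are to be read against 7.19% of all tested genes called higher and 8.77% called lower. ER stress and the amino acid response had 4 of 20 tested members lower after hypoxia, 0 higher and a median of -0.51. These were the serine and glycine enzymes PHGDH (2.77-fold, adjusted p = 0.00169) and SHMT2 (2.17-fold, adjusted p = 0.00408), the ER protein HERPUD1 (-0.76 ± 0.21) and the transcription factor XBP1 (-1.21 ± 0.29). SHMT2 was not called with the ACTB ratio as a covariate (0.0618), nor XBP1 over the mean of its probe sets (0.0534). The stress regulators ATF4 (-0.25), DDIT3 (-0.57) and HSPA5 (-0.20) were not called, the HERPUD1 call ended without epirubicin array 1 or 3 or hypoxia array 4 (adjusted p up to 0.0909), and the count was 2 with the ACTB ratio as a covariate. Metallothioneins went the other way, with 4 of 9 tested members of the list higher after hypoxia and 0 lower, and a median of 0.70. MT1X read 308.5, 509.6, 346.6 and 289.1 against 1244.8, 938.4, 602.5 and 1663.7 (2.91-fold, log2 1.54 ± 0.27, adjusted p = 0.00225), and untreated cells had 924 ± 120 (n = 3), within the hypoxia range and above every epirubicin array. MT1 genes are near-identical copies whose probes can share targets, so MT1H (1.76), MT1X and MT1F (1.08) are not independent. The count was 1 with either quality covariate and 2 without epirubicin arrays 3 and 4.

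Epithelial and luminal identity shifted in few members. Luminal identity had 1 of 19 tested members higher after hypoxia and 4 lower, with a median of -0.35. The shares over all tested genes were 7.19% higher and 8.77% lower. EHF, an epithelial ETS factor, read 812.7, 562.6, 786.6 and 448.1 against 94.1, 215.3, 252.3 and 95.7 (4.16-fold lower, log2 -2.06 ± 0.31, adjusted p = 9.29e-04), and ELF3, another ETS factor, was 1.89-fold lower (adjusted p = 0.00488; 0.0712 with the ACTB ratio as a covariate). SCGB2A2, mammaglobin, averaged 130 ± 73.2 after epirubicin, 28.2 ± 32.5 after hypoxia and 440 ± 141 (n = 3) in untreated cells, 5.09-fold lower after hypoxia (adjusted p = 0.00729). KRT8 (0.14), KRT18 (-0.31), KRT19 (-0.16), FOXA1 (0.38) and GATA3 (0.23) were not called. Junction genes had 6 of 17 tested members higher, 0 lower and a median of 0.21, led by the desmosomal plakin DSP, at 410.0 to 629.3 and 1130.6 to 1749.7 (2.90-fold, adjusted p = 1.82e-04). The junction count was 3 without epirubicin array 3 and 2 with either quality covariate or without epirubicin arrays 3 and 4. CDH1, epithelial cadherin, was below the filter.

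Immediate early genes had 3 of 15 tested members higher and 2 lower, with a median of 0.24, led by JUN, an AP-1 subunit, at 223.3 to 391.7 and 641.1 to 1045.7 (2.81-fold, adjusted p = 4.44e-04). The phosphatase DUSP1 (2.07-fold, adjusted p = 0.0113; 0.0677 with the hybridisation controls as a covariate) and the AP-1 subunit FOSL2 (1.84-fold, adjusted p = 0.0101) were also higher, and MAFF was lower (-0.95 ± 0.28), a call that ended without epirubicin array 1 (adjusted p = 0.102) or without hypoxia array 1, 2 or 3 (adjusted p up to 0.0745). The MAFF call also ended with the hybridisation controls (0.124) or the ACTB ratio (0.0969) as a covariate. Of 9 histone genes 3 were higher and 2 lower, with a median of -0.21. H4C8 had the largest difference (2.43-fold higher, adjusted p = 6.70e-04, and 3.82-fold over the mean of its probe sets). With either quality covariate the histone counts were 1 higher and 1 lower, and without epirubicin array 3 they were 2 and 0. The counts of these small lists are to be read against 7.19% of all tested genes called higher and 8.77% called lower. In the ERBB2 amplicon 0 of 13 tested members were higher and 1 lower, near that share, with a median of -0.25. That member, the adaptor GRB7 (-0.62 ± 0.19, adjusted p = 0.0398), lost its call without epirubicin array 1 or 4 or without hypoxia array 1, 3 or 4 (adjusted p up to 0.121). GRB7 was also not called with the hybridisation controls (0.103) or the ACTB ratio (0.147) as a covariate. ERBB2 was not called, with a log2 difference of -0.25 ± 0.17 (adjusted p = 0.371).

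The sort marker was not distinguishable between the treatments with all 8 arrays. CD44 read 216.4, 1268.3, 340.1 and 768.8 after epirubicin and 1050.3, 486.7, 972.2 and 1658.3 after hypoxia. Epirubicin array 2 was above 3 of the 4 hypoxia arrays and hypoxia array 2 was below 2 of the 4 epirubicin arrays. The log2 difference was 0.87 ± 0.47 (95% interval -0.14 to 1.89, adjusted p = 0.243). Without both arrays 2, which is an alternative chosen after seeing the data, it was 1.62 and called (adjusted p = 0.0106). CD24, a surface glycoprotein read together with CD44, was at 6254.2, 4008.0, 7570.3 and 6898.6 against 3405.0, 3921.6, 4694.8 and 3433.6 (1.57-fold lower after hypoxia, log2 -0.65 ± 0.20, adjusted p = 0.0436), with overlapping groups. The CD24 call ended without epirubicin array 1, 3 or 4 or without hypoxia array 1, 2 or 4, at adjusted p from 0.0674 to 0.135. It also ended with the hybridisation controls (0.200) or the ACTB ratio (0.358) as a covariate. Quantile normalization, no filter and no variance trend each ended it too.

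**Figure D4:**
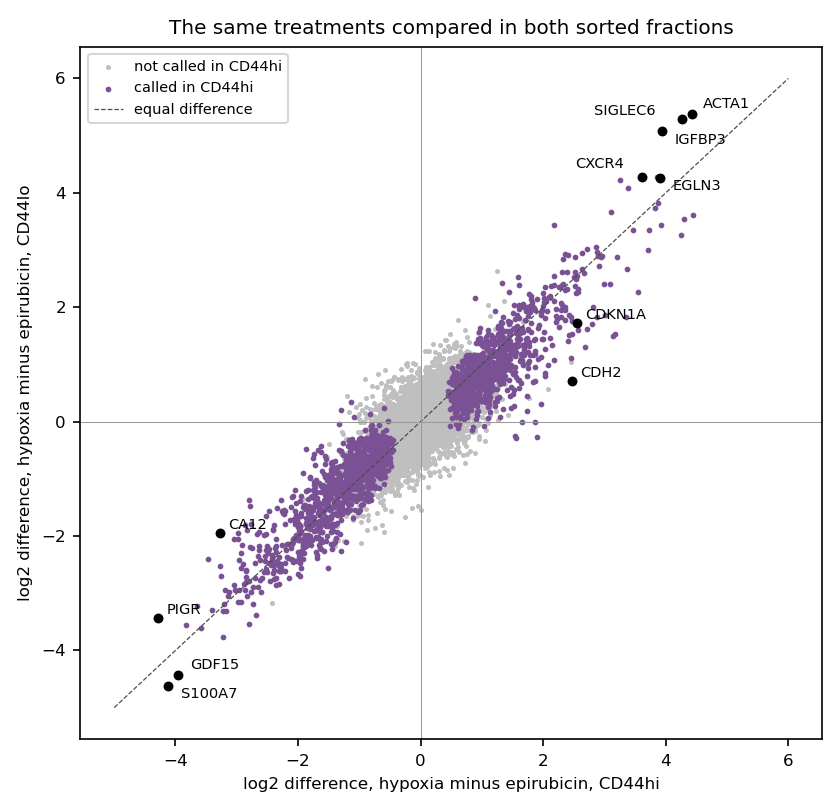
Log2 difference (hypoxia minus epirubicin) of 12064 genes in CD44hi cells (horizontal) and CD44lo cells (vertical); purple points were called in CD44hi cells, black points are named, and the dashed line marks equal differences. Genes lie along the line (r = 0.87 across genes), with CA12 at -3.27 and -1.94.

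CD44lo cells were compared in the same way, on other arrays of the same treatments. These are not unrelated samples: in 7 of 8 cases the CD44hi and CD44lo arrays of equal number and treatment deviated together from their group means (r = 0.123 to 0.663), and for the first hypoxia arrays they did not (r = -0.043). There 646 genes (5.35%) were called higher after hypoxia and 928 (7.69%) lower, together 1574. Both fractions called 1152 genes, which are 59.8% of the CD44hi and 73.2% of the CD44lo calls, and the sign was the same for all 1152. This overlap is therefore not independent support. Of the 1925 CD44hi calls 1908 had the same sign in CD44lo cells. Across genes, which are not independent and share the array platform, the differences correlated at r = 0.87. The hypoxia list (19 higher and 1 lower of 23 in both fractions), the mitosis list (25 lower of 25 in both) and the contractile list (13 higher of 21 in both) had equal counts. Other lists did not: junction genes had 6 higher in CD44hi and 3 in CD44lo cells, NF-kB genes 3 and 0, metallothioneins 4 and 2, and ER stress genes 4 and 8 lower, differences in count that were not tested as such.

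Whether a difference was larger in CD44hi than in CD44lo cells was tested as the difference of the contrasts over 16 arrays. It called 0 of 12064 genes (0%) in limma, with 177 at an unadjusted p under 0.05 and a lowest adjusted p of 1.000. That fit took the 16 arrays as unpaired, although most CD44hi and CD44lo arrays of equal number and treatment deviated together. The 177 genes are fewer than chance alone would give, so its standard errors may be too large. With the replicate number within treatment as a block, again 0 were called, with 757 at an unadjusted p under 0.05 and a lowest adjusted p of 0.734. The median standard error of the unpaired fit was 0.35, against 0.24 in the CD44hi comparison. For simulated differences of 1 and 2 on the log2 scale the unpaired fit recovered 24 and 75 of 100 genes. The simulated noise was independent between arrays, without the shared deviations of the data, so recovery in the data may differ. CA12 had -3.27 ± 0.25 in CD44hi and -1.94 ± 0.35 in CD44lo cells (difference -1.33 ± 0.47, unadjusted p = 0.0116, adjusted p = 1.000). CDH2 had 2.47 ± 0.51 and 0.71 ± 0.56 (difference 1.76 ± 0.82, unadjusted p = 0.0444, adjusted p = 1.000). The values of CA12 and CDH2 come from the unpaired fit. In neither fit was a gene shown to differ between the fractions in its response.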

How the data were processed

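Total RNA of sorted and untreated SKBR3 cells was hybridised to Affymetrix 3' expression arrays. The authors deposited a linear signal intensity per probe set, made with MAS5 per the submitters' processing notes. Further settings are not given in the sources used here. Every array had a trimmed mean of 100.0, so no further scaling was applied. Probe sets with several or no gene symbols were left out. Each of 19775 genes was represented by its probe set with the highest mean over 19 arrays. Probe sets of the _x_at kind were used only for genes that had no other kind. Values were analysed as log2(signal + 4.2), 4.2 being the 25th percentile of the deposited signals. A gene was tested when at least 3 of the 8 CD44hi arrays reached 16.9, the table median. The 8 arrays were fitted in limma 3.58.1 (R 4.3.3) with a variance trend, two-sided, with Benjamini-Hochberg adjustment. Tested on simulated data, this fit recovered 43 of 100 genes changed by 1 and 85 of 100 changed by 2 on the log2 scale. The simulated noise was independent between arrays, and far fewer genes were changed than were called in the data, so recovery in the data may differ. MAS5 signals near background are noisy, and no detection calls were used. The arrays' number limits the precision.

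The members and the 30 gene lists (625 entries) were chosen with earlier results of these data known; 1 list is not reported here. Named genes are CD44, CD24, ERBB2, the 15 largest rises and 15 largest falls among called genes without overlap, and up to 4 called members of each list. Any other member is named to account for its list and was chosen after its values were seen. For the largest rises and falls, groups without overlap were a condition of the choice and not a result. In the CD44hi groups arrays of equal replicate number had weak positive correlations of deviations (0.043, 0.143, 0.041 and 0.146). Unequal numbers had -0.271 to 0.132. In the CD44lo groups equal numbers had 0.404, 0.389, -0.087 and 0.204. Some pairing by number is therefore possible. No block was used in the main fit, and a fit with the replicate number as a block is given as an alternative. Alternatives were the offset, filter, normalization, probe sets, variance model, array quality covariates and leaving out arrays.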

Additional observations from a re-analysis of the deposited data

Results flagged for a closer look

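Among 258 sets of 4 arrays (129 named genes in each CD44hi group), 9 held an array far from the other 3 by Dixon's criterion for 4 values (gap over range above 0.829). About 1 in 20 such sets would do so by chance. On epirubicin array 4 HMMR read 114.9 (the others 326.8 to 400.1), KIF20A 96.7 (275.5 to 336.3) and BST2 89.0 (154.8 to 170.9). On epirubicin array 1 COL5A1 read 86.0 (56.8 to 59.4) and MAFF 786.8 (361.6 to 400.0), and on epirubicin array 2 TKT read 2724.0 (4417.2 to 4804.7). On hypoxia arrays S100A9 read 420.8 on array 1 (1375.2 to 1646.2), EBP 575.0 on array 2 (361.5 to 388.4) and SHMT2 1110.8 on array 4 (1587.5 to 1693.8).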

How the results depend on the processing

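The 1925 CD44hi calls became 1129 with the hybridisation controls and 1142 with the ACTB ratio as a covariate, and 1115 without epirubicin arrays 3 and 4, an alternative chosen after seeing the data; the cause was not tested. Leaving out 1 array gave 1152 to 2109, with 1258 without epirubicin array 1, 1152 without epirubicin array 3 and 1270 without hypoxia array 1, where fewer arrays were fitted. The other settings (16 or 19 arrays in the fit, offsets of 1 and 16.9, other filters, quantile normalization, the mean of all probe sets, other variance models, without arrays 2) gave 1589 to 2341. With the replicate number as a block 2125 genes were called, and the calls of all 129 named genes kept their side of the threshold. The 1574 CD44lo calls became 2461 with the replicate block, and 851 to 1983 with 1 array left out: 875 without epirubicin array 1, 851 without epirubicin array 3 and 973 without hypoxia array 3. The difference of the contrasts called 0 genes in each setting run, and with the replicate block 757 had an unadjusted p under 0.05. Of the 127 called named genes 106 were called in each fit with 1 CD44hi array left out, 103 with the hybridisation controls and 97 with the ACTB ratio as a covariate. No named gene changed direction in any setting run. Signals near the offset limit the size of differences, and 4 arrays per group limit their detection.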
